A study of Mus musculus with 12 samples.

Results

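The 9 membrane-bound adenylyl cyclase genes of the mouse, Adcy1 to Adcy9, were followed through 12 hearts, with the question of where Adcy6 stands in the isoform mix and how that mix differed after injury and between genotypes. The genes were taken by symbol, each symbol matched to its Ensembl identifier in both deposited count tables. All 9 were found among the 38293 identifiers of each table. The study sequenced RNA from hearts of wild-type mice after sham surgery (WT sham, n = 3) or after ischaemia-reperfusion (WT IR, n = 3), and from injured hearts of mice with a Zeb2 transgene (Zeb2 cTg IR, n = 3) and of their wild-type littermates (Zeb2 WT IR, n = 3). Ischaemia-reperfusion is a temporary closure of the left anterior descending coronary artery followed by reflow.

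Membrane adenylyl cyclases turn ATP into cyclic AMP. In the cardiomyocyte, noradrenaline and adrenaline bind beta-adrenergic receptors, the stimulatory G protein activates the cyclase, and cyclic AMP acts through protein kinase A (PKA), through the exchange factors Epac and through Popeye proteins, until phosphodiesterases degrade it. Adcy5 and Adcy6 encode the isoforms best known in cardiac muscle, and both enzymes are inhibited by calcium and by the inhibitory G protein. The enzymes of Adcy1, Adcy3 and Adcy8 respond to calcium with calmodulin, those of Adcy2, Adcy4 and Adcy7 respond to G protein beta gamma subunits, and that of Adcy9 is largely insensitive to forskolin.

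All mice were adult and of 1 strain, which the labels spell C57B/6J, C57Bl/6J or, for the sham hearts, C75Bl/6J, and tissue of the injured hearts was taken 14 days after IR. The labels of the sham hearts give no day. Zeb2 cTg mice carry a Zeb2 sequence in the Rosa26 locus behind a stop cassette that a Cre recombinase removes. The Cre is driven by the alpha myosin heavy chain promoter, so the design places the transgene in cardiomyocytes, whereas the RNA came from tissue with all its cell types. The labels name the left ventricle, the methods the remote zone and the series text the infarct with its border, and the sources used here do not settle which was taken. Both wild-type and transgenic mice of the second table were injured, and no uninjured heart of that pair was analysed here.

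Zeb2 itself checks the labels of the second table. It had 54.7, 57.8 and 67.0 CPM (counts per 1e6 counts, TMM-normalized) in Zeb2 WT IR and 55.5, 56.9 and 58.7 CPM in libraries labelled Zeb2 cTg IR. These groups overlapped, so every direction given for the libraries labelled Zeb2 cTg IR rests on the labels. Depth outside the mitochondrial genome was 5706340 to 11618213 counts per library, and 1 CPM stood for 17.2 to 37.8 counts. All 10 cardiomyocyte markers had counts in every library, with a summed level of 16228 to 24780 CPM, so the tissue label holds for cardiac muscle. In the main fits each table was normalized on its own, and no test compared groups of different tables. An alternative fit, named where it is used, normalized all 12 libraries together.

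The 9 genes lie at separate places of the genome (GRCm38). Adcy6 (ENSMUSG00000022994) is at chr15:98589973-98610076 on the minus strand, and 605 bases of its exons overlap exons of the predicted gene Gm29331 on the opposite strand. Adcy5 (ENSMUSG00000022840) is at chr16:35154877-35305738 on the plus strand, Adcy7 (ENSMUSG00000031659) at chr8:88272403-88329962 on the plus strand and Adcy9 (ENSMUSG00000005580) at chr16:4287529-4420498 on the minus strand. Exons of Adcy3 overlap 1380 bases of Cenpo, and those of Adcy2 overlap 189 bases of Gm35161, both on the opposite strand. The libraries were stranded, but the strand setting of the counting is not given in the sources used here.

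Related genes can share reads, so the coding sequences of the members were aligned. Adcy5 and Adcy6 were the most alike, with 70.8% identity over 3454 aligned bases against 46.5% to 63.1% for the other pairs. No stretch of 75 bases, the length of the reads, was shared by any transcripts of 2 members. The most alike stretch of read length in Adcy5 and Adcy6 is shown because it is where a read could most easily be assigned to the wrong one of these genes. It spans coding bases 1366 to 1440 of Adcy5 and 1087 to 1161 of Adcy6 in the GENCODE M21 transcripts, and the capitals mark the 5 bases that differ.
Adcy5: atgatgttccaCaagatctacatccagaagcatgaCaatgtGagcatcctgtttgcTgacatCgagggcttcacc
Adcy6: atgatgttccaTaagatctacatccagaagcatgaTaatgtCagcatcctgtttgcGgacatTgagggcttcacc
No other gap-free stretch of this length in the alignment of these coding sequences had fewer differences.

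The study also lists a quantitative PCR primer pair for mouse Adcy6. It is shown because it decides which member such a measurement reads, and the capitals mark the bases that differ from the closest stretch of Adcy6.
Forward: CTggaggaTgagAaTgagaagC
Reverse: tgcCtctggatgtaAatcttGtg
Among 141767 transcripts of GENCODE M21, each primer matched 1 transcript exactly, and that transcript belonged to Adcy1 in both cases. The forward primer lies in exon 2 at chr11:7079014-7079035 and the reverse primer in exon 3 at chr11:7100654-7100676, with an amplicon of 131 bases. Against Adcy6 the fewest mismatches were 6 for the forward and 3 for the reverse primer. The PCR values were not analysed here, and the sequencing counts below do not depend on these primers.

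Adcy6 had the highest level per length of the 9 genes in all 4 groups. Levels between genes are given as CPM per kb, which is CPM divided by the length of the merged exons in units of 1000 bases. Adcy6 reached 10.6, 11.0 and 8.08 CPM per kb in the 3 WT sham hearts and 9.49, 7.14 and 6.74 CPM per kb in the 3 WT IR hearts. In the other table it reached 8.93, 6.56 and 6.32 CPM per kb in Zeb2 WT IR and 14.0, 10.4 and 15.5 CPM per kb in libraries labelled Zeb2 cTg IR. In each group its lowest library lay above the highest library of the next gene, Adcy5.

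Adcy5 followed in WT sham with 4.65 ± 0.482 CPM per kb (SD, n = 3), and Adcy9 with 3.82 ± 0.267 CPM per kb (SD, n = 3). These neighbours did not overlap in WT sham. Adcy4 with 1.65 ± 0.222 and Adcy7 with 1.54 ± 0.200 CPM per kb (SD, n = 3 each) overlapped each other and lay below Adcy9. Adcy3 with 0.370 and Adcy1 with 0.254 CPM per kb also overlapped, as did Adcy8 with 0.0519 and Adcy2 with 0.0422 CPM per kb at the bottom. The uninjured heart thus showed a span from 9.87 ± 1.57 CPM per kb (SD, n = 3) for Adcy6 to less than 1 CPM per kb for 4 of the 9 genes.

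In both groups of injured wild-type hearts neighbours in places 2 to 4 of the order overlapped. In WT IR, Adcy5 had 3.20 ± 0.438, Adcy7 2.98 ± 1.11 and Adcy9 2.65 ± 0.378 CPM per kb (SD, n = 3 each), and neighbours among these 3 overlapped. In Zeb2 WT IR the same 3 genes held places 2 to 4, with 2.64 CPM per kb for Adcy5, 2.49 for Adcy9 and 2.04 for Adcy7, and again neighbours overlapped. Among libraries labelled Zeb2 cTg IR, Adcy5 with 4.31 ± 0.754 CPM per kb (SD, n = 3) lay apart from Adcy9 with 2.5 ± 0.405 CPM per kb (SD, n = 3), while Adcy9 and Adcy7 (2.10 CPM per kb) overlapped.

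**Figure D1:**
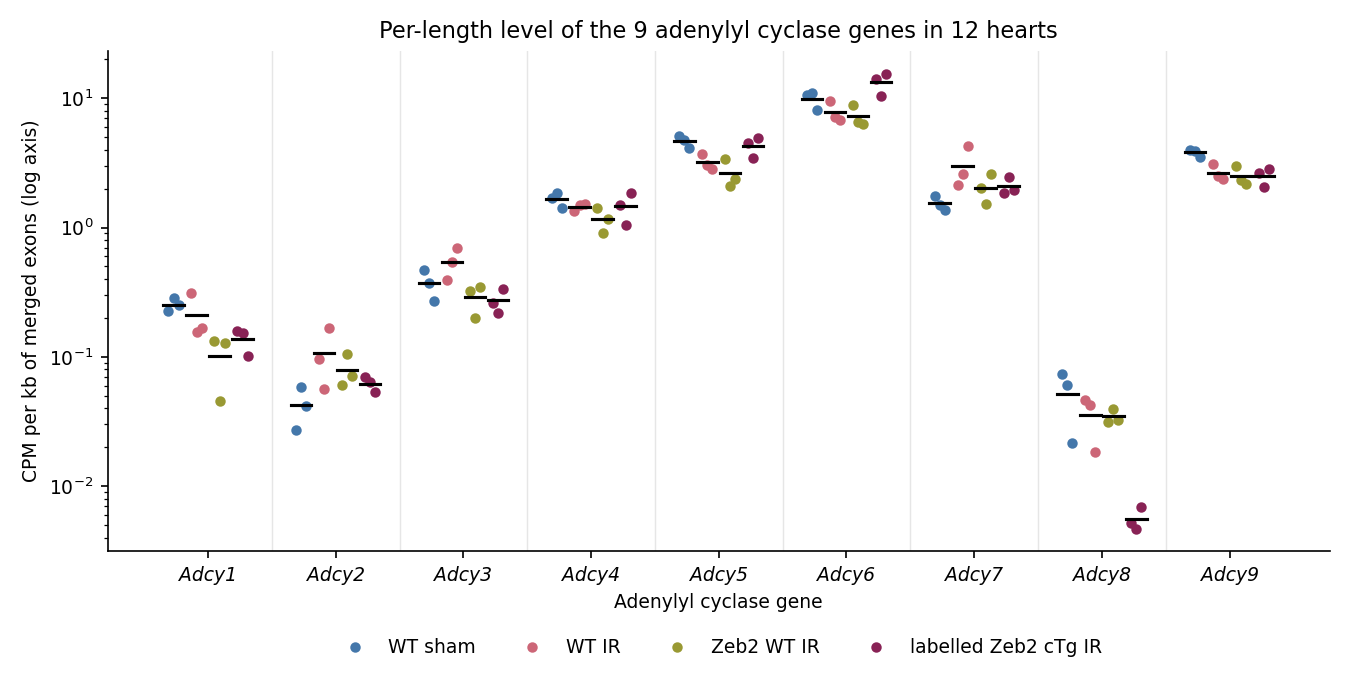
Level of each adenylyl cyclase gene in CPM per kb of merged exons (log axis), with 1 point per heart, colours for the 4 groups and black lines for group means (n = 3). Adcy6 lies highest in every group, and the points for Adcy8 in libraries labelled Zeb2 cTg IR stand for 1 or 2 counts each.

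As a share of the summed level per length of all 9 genes, Adcy6 made up 44.2% ± 1.98 in WT sham, 40.9% ± 5.11 in WT IR, 45.1% ± 3.15 in Zeb2 WT IR and 54.8% ± 2.18 in libraries labelled Zeb2 cTg IR (SD, n = 3 each). A share within a library does not depend on the size factor of that library. In bulk tissue, fewer cells of a type and less RNA per cell cannot be told apart, and this holds for every difference given here. The Adcy6 share was 44.1%, 46.2% and 42.3% in WT sham and 46.2%, 40.6% and 36.0% in WT IR, so these groups overlapped, with a difference of -3.32 percentage points (two-sided exact permutation p = 0.4). It was 46.2%, 47.5% and 41.5% in Zeb2 WT IR and 55.9%, 52.3% and 56.3% in libraries labelled Zeb2 cTg IR. These did not overlap, with a difference of 9.74 percentage points (two-sided exact permutation p = 0.1, the smallest that 3 hearts against 3 allow).

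The shares of other members also separated some groups. In WT IR the share of Adcy7 was 15.9% ± 6.23 against 6.95% ± 0.597 in WT sham, that of Adcy5 16.8% ± 1.47 against 20.96% ± 0.95, and that of Adcy9 14.0% ± 1.22 against 17.3% ± 1.01 (SD, n = 3 each). For these 3 genes, and for Adcy2 with shares below 1%, the groups did not overlap (two-sided exact permutation p = 0.1 for each, without adjustment over the 9 genes). Among libraries labelled Zeb2 cTg IR the share of Adcy9 was 10.3% ± 0.185 against 15.5% ± 1.22 in Zeb2 WT IR (SD, n = 3 each), and the shares of Adcy3 and Adcy8 were also lower without overlap (two-sided exact permutation p = 0.1 for each). The share of Adcy7 overlapped there, with 9.01% ± 2.99 against 12.8% ± 3.61 (SD, n = 3 each). The order of Adcy9 and Adcy7 in the second table depended on the length used. Per length of the longest coding sequence, Adcy9 held 11.0% and Adcy7 14.4% in Zeb2 WT IR. On that length, Adcy9 held 7.16% and Adcy7 9.94% in libraries labelled Zeb2 cTg IR.

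Grouped by how the enzymes are regulated, the calcium-inhibited isoforms Adcy5 and Adcy6 together held 65.2% ± 1.11 of the summed level in WT sham and 57.7% ± 6.49 in WT IR (SD, n = 3 each). These overlapped, with 64.1% in 1 injured heart (two-sided exact permutation p = 0.2). The isoforms responsive to beta gamma subunits held 14.5% ± 0.258 in WT sham and 24.1% ± 7.17 in WT IR, without overlap, and Adcy7 made up most of it in WT IR. In the second table the calcium-inhibited isoforms held 61.3% ± 3.58 in Zeb2 WT IR and 72.6% ± 2.49 in libraries labelled Zeb2 cTg IR, also without overlap (two-sided exact permutation p = 0.1). The isoforms responsive to beta gamma subunits held 15.3% ± 2.42 there against 20.5% ± 3.98 in Zeb2 WT IR (SD, n = 3 each), without overlap. Isoforms that respond to calcium with calmodulin held 4.19% in WT IR against 3.02% in WT sham, and 1.74% in libraries labelled Zeb2 cTg IR against 2.64% in Zeb2 WT IR, neither with overlap (two-sided exact permutation p = 0.1 for each of these 3 differences). With TMM size factors, the lower beta gamma share in libraries labelled Zeb2 cTg IR was not a lower level of its main members. Adcy4 had 1.47 CPM per kb there against 1.16 in Zeb2 WT IR, and Adcy7 2.10 against 2.04. Adcy2, the least abundant, had 0.0622 against 0.0793. None of the shares given above carries a correction for GC content (the share of G and C bases). With the correction described below, the log2 fold changes in libraries labelled Zeb2 cTg IR were 0.12 for Adcy4 and -0.07 for Adcy7. They were 0.34 and 0.04 without it, and none of these passed.

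**Figure D2:**
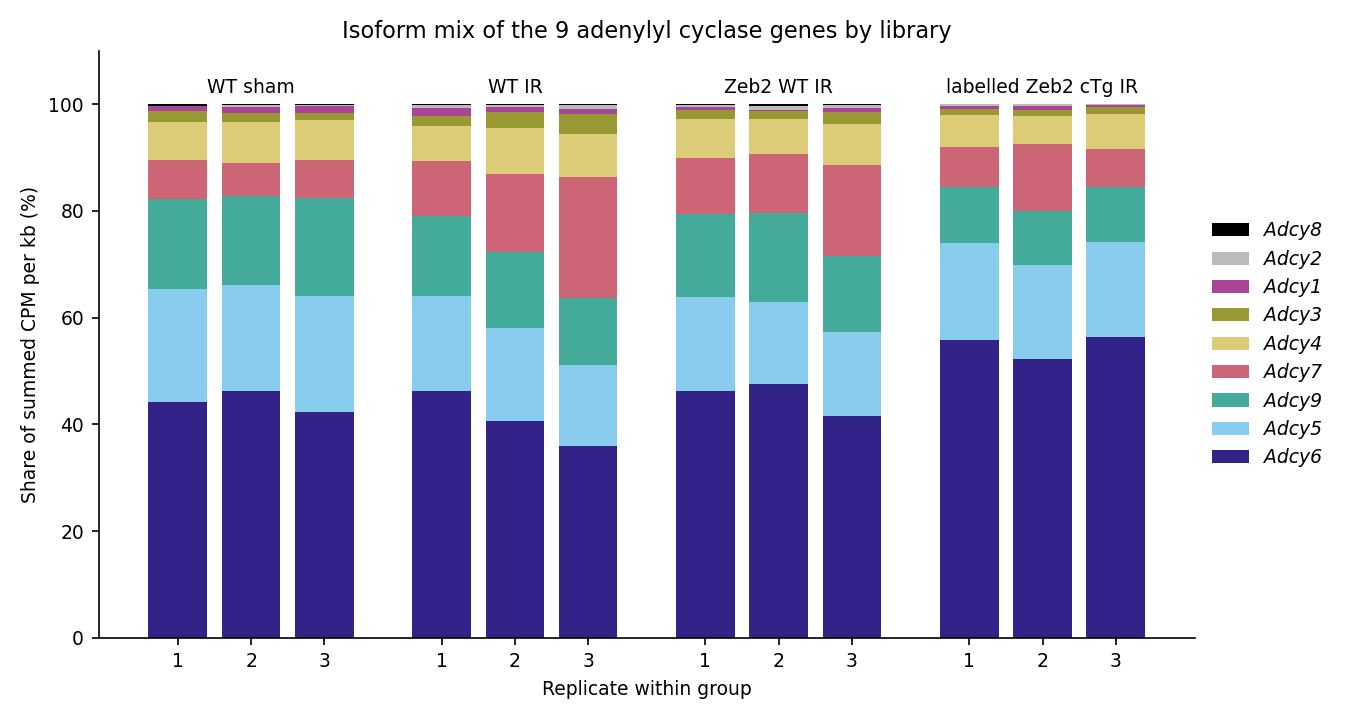
Share of each gene in the summed CPM per kb of the 9 adenylyl cyclase genes, 1 stacked bar per heart, ordered by group. Adcy6 takes 36.0% to 47.5% in the hearts of the first 3 groups and 52.3% to 56.3% in libraries labelled Zeb2 cTg IR.

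The summed level itself was 22.3 ± 2.74 CPM per kb in WT sham and 19.0 ± 1.49 in WT IR (SD, n = 3 each), with overlap (two-sided exact permutation p = 0.2). It was 16.1 ± 2.86 CPM per kb in Zeb2 WT IR and 24.2 ± 3.91 in libraries labelled Zeb2 cTg IR (SD, n = 3 each), without overlap (two-sided exact permutation p = 0.1). Adcy6 accounted for 74.96% of that difference of 8.05 CPM per kb and Adcy5 for 20.7%. These sums carry no GC correction either, and a GC-corrected sum was not tested. With that correction the log2 fold changes in libraries labelled Zeb2 cTg IR were smaller. They were 0.59 for Adcy6 and 0.26 for Adcy5, against 0.87 and 0.71 without it.

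Because Adcy5 and Adcy6 have similar enzymes, their ratio was examined as well. Per length, Adcy6 exceeded Adcy5 by 2.07, 2.33 and 1.95 times in the 3 WT sham hearts and by 2.58, 2.33 and 2.37 times in the 3 WT IR hearts. These groups did not overlap, although the lowest injured heart and the highest sham heart nearly met. On the log2 scale the difference between groups was 0.20 (two-sided exact permutation p = 0.1). The ratio was 2.61, 3.10 and 2.64 in Zeb2 WT IR and 3.09, 3.00 and 3.15 in libraries labelled Zeb2 cTg IR, which overlapped, with a log2 difference of 0.15 (two-sided exact permutation p = 0.3). In every heart, Adcy6 was the more abundant of the pair by at least 1.95 times. These ratios carry no correction for GC content, which differs within the pair. Without a GC correction, the log2 fold changes in WT IR were -0.34 for Adcy6 and -0.54 for Adcy5. With it, as described below, they were -0.31 and -0.36. In libraries labelled Zeb2 cTg IR they were 0.87 and 0.71 without it, and 0.59 and 0.26 with it. A GC-corrected ratio was not tested.

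**Figure D3:**
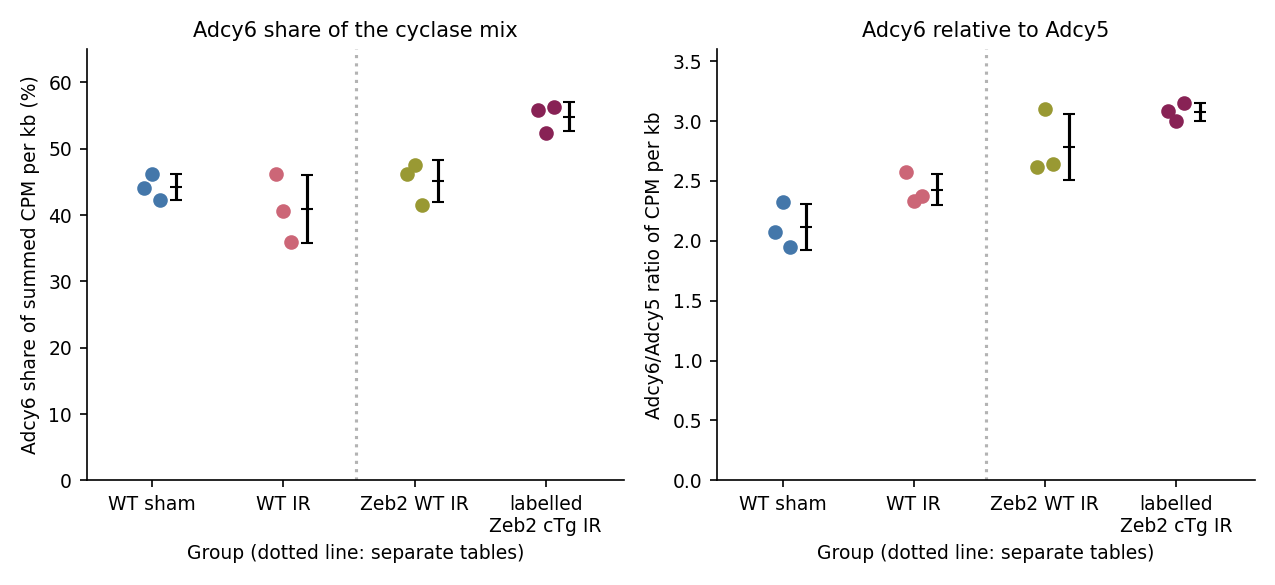
Share of Adcy6 in the summed CPM per kb of the 9 genes (left, %) and ratio of Adcy6 to Adcy5 in CPM per kb (right), with 1 point per heart and bars for the mean ± SD (n = 3). The share is 52.3% or more only in libraries labelled Zeb2 cTg IR, while the ratio of the last 2 groups overlaps.

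Injury was then tested gene by gene in WT IR against WT sham. Adcy7 rose, Adcy5 and Adcy9 fell, and Adcy1, Adcy3, Adcy4, Adcy6 and Adcy8 did not pass the test. Of the 8 members with enough counts, 1 was called higher and 2 lower at an adjusted p under 0.05 (edgeR's quasi-likelihood test with Benjamini-Hochberg adjustment). Over all 13756 genes tested, 11.0% were called higher and 9.74% lower, or 20.8% in all. The median log2 fold change was -0.31 over the 8 members and 0.01 over all genes.

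Adcy5 had 36.6, 33.9 and 29.7 CPM in WT sham and 26.5, 22 and 20.4 CPM in WT IR. All 3 injured hearts lay below all 3 sham hearts. Its log2 fold change was -0.54 (standard error, SE, 0.11, adjusted p = 0.0122 by the quasi-likelihood test of edgeR).

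Adcy9, whose enzyme is found in many tissues, had 20.8, 20.5 and 18.3 CPM in WT sham and 16.0, 13.1 and 12.3 CPM in WT IR. These groups did not overlap either. The log2 fold change was -0.53 (SE 0.11, adjusted p = 0.0121 in edgeR). Adcy6 had 71.6, 74.5 and 54.8 CPM in WT sham against 64.4, 48.4 and 45.7 CPM in WT IR. The groups overlapped, because 1 injured heart lay among the sham hearts, and the log2 fold change of -0.34 did not pass (SE 0.15, adjusted p = 0.128). Without WT IR replicate 1, the injured heart highest in Adcy6, it was -0.51 and passed (adjusted p = 0.00401 in edgeR), and it also passed without a filter on low counts (-0.34, adjusted p = 0.0328).

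Adcy7, a cyclase known from blood and immune cells, went the other way. It had 11.9, 10.03 and 9.25 CPM in WT sham and 14.3, 17.4 and 28.5 CPM in WT IR. The injured hearts lay above the sham hearts without overlap but spread widely, and the log2 fold change was 0.94 (SE 0.23, adjusted p = 0.0207 in edgeR), about 1.91 times the sham level. Without WT IR replicate 3, the heart with the most Adcy7, the log2 fold change was 0.60 and still passed (adjusted p = 0.0124). Adcy3 had a log2 fold change of 0.52 (adjusted p = 0.154), Adcy4 of -0.19 (adjusted p = 0.277) and Adcy1 of -0.27 (adjusted p = 0.486), and all of these groups overlapped. Groups that did not overlap in CPM made up 3 of the 8 members and 39.8% of all genes tested.

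Markers of some cell types moved with these genes. In WT IR, 7 of 8 macrophage markers were called higher, with a summed level of 197 to 380 CPM against 132 to 147 CPM in WT sham, and 7 of 8 fibroblast markers were called higher, with 1814 to 4535 CPM against 495 to 894 CPM. Of 10 cardiomyocyte markers 4 were called lower, with 16228 to 21616 CPM against 22523 to 24780 CPM. The heart with the highest Adcy7 and the lowest Adcy6 share, WT IR replicate 3, also had the highest fibroblast and macrophage sums and the lowest cardiomyocyte sum of the injured WT hearts. Of 7 endothelial markers 0 were called by edgeR, DESeq2 or limma-voom, with 2 at an unadjusted p under 0.05 in edgeR. Smooth muscle and pericyte (1 higher and 2 lower of 8), erythroid (2 lower of 5) and Schwann and neuronal markers (1 higher of 3 tested) moved less, and lymphocyte and adipocyte markers, with sums of at most 1.72 and 0.378 CPM, were too low to test. The part of cell composition in the changes of Adcy5, Adcy7 and Adcy9 was not tested.

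Which members passed depended on the scale. With size factors from the cardiomyocyte markers, the median of all genes moved to 0.39, Adcy7 had a log2 fold change of 1.38 (adjusted p = 0.00801 in edgeR), Adcy3 passed as well with 0.95 (adjusted p = 0.0325), Adcy5 of -0.17 (adjusted p = 0.255), Adcy9 of -0.16 (adjusted p = 0.310), and Adcy6 turned to 0.03. Relative to that median the values were 0.98 for Adcy7, -0.56 for Adcy5, -0.55 for Adcy9 and -0.37 for Adcy6. Adcy7 no longer passed without WT sham replicate 2, WT sham replicate 3 or WT IR replicate 2, and Adcy5 and Adcy9 no longer passed without WT sham replicate 1, WT sham replicate 2 or WT IR replicate 2, with adjusted p up to 0.102 for Adcy7, 0.0694 for Adcy5 and 0.0704 for Adcy9 in these edgeR fits.

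**Figure D4:**
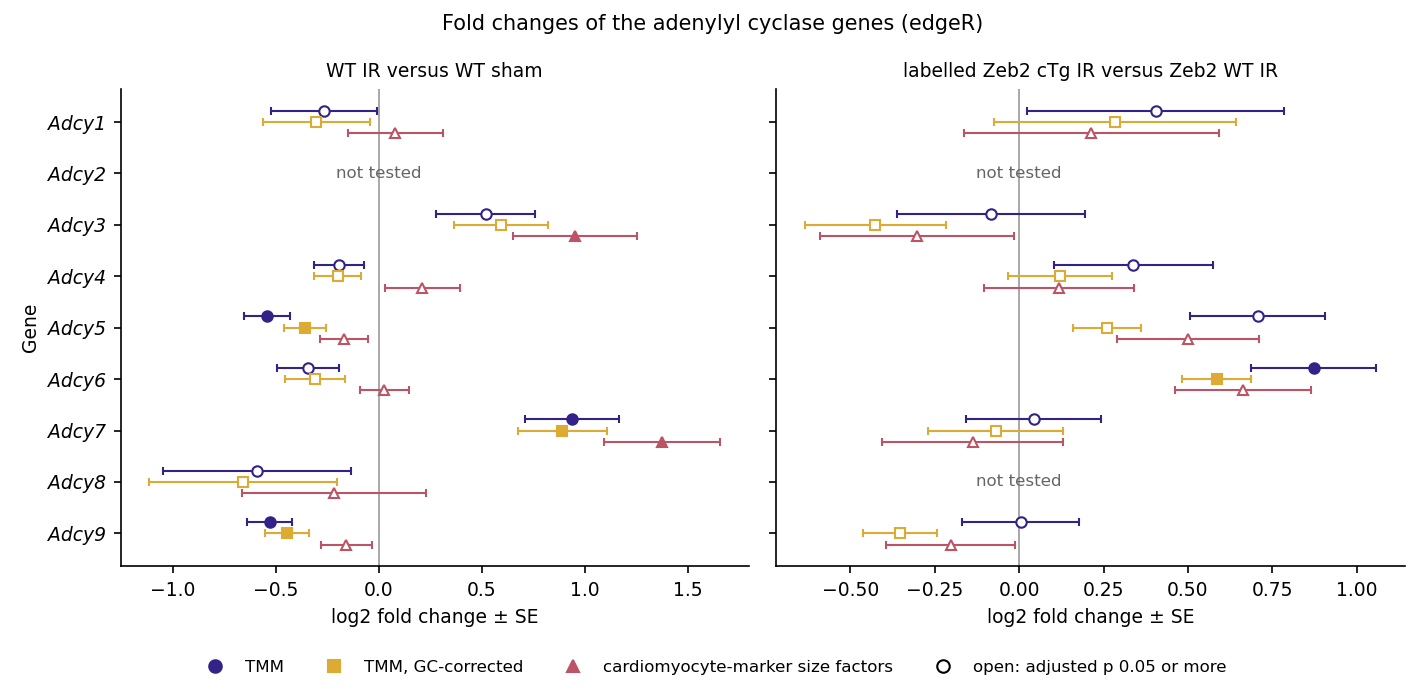
Log2 fold change (± SE) of each gene in WT IR against WT sham (left) and in libraries labelled Zeb2 cTg IR against Zeb2 WT IR (right), with TMM size factors, with a GC correction and with size factors from cardiomyocyte markers (n = 3 per group). Filled symbols passed at an adjusted p under 0.05. Adcy6 passes with TMM and with the GC correction on the right only, and Adcy7 passes under all 3 on the left.

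The second comparison set libraries labelled Zeb2 cTg IR, whose Zeb2 level overlapped that of the controls, against Zeb2 WT IR. Adcy6 rose and was the only 1 of the 7 members tested to pass in edgeR and in limma-voom, while DESeq2 called 2, Adcy5 and Adcy6. Of these 7 members 0 were called lower by edgeR, DESeq2 or limma-voom, and 0 at an unadjusted p under 0.05 in edgeR. Over all 13018 genes tested, 2.14% were called higher and 1.51% lower, or 3.64% in all. The median log2 fold change was 0.34 over the 7 members and 0.01 over all genes.

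Adcy6 had 60.6, 44.5 and 42.9 CPM in Zeb2 WT IR and 94.7, 70.6 and 105 CPM in libraries labelled Zeb2 cTg IR. All 3 of the latter lay above all 3 of the former. The log2 fold change was 0.87 (SE 0.19, adjusted p = 0.0369 by the quasi-likelihood test of edgeR), or 1.83 times. Without Zeb2 WT IR replicate 2 or 3, or without replicate 1 or 3 of the libraries labelled Zeb2 cTg IR, it no longer passed, with adjusted p up to 0.171.

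Adcy5 did not pass in the main edgeR fit but did in others. It had 24.5, 15.2 and 17.2 CPM in Zeb2 WT IR and 32.5, 24.9 and 35.4 CPM in libraries labelled Zeb2 cTg IR. These groups did not overlap, and the log2 fold change was 0.71 (SE 0.20, adjusted p = 0.0797 in edgeR). It passed with DESeq2 (adjusted p = 0.0187), without a filter on low counts (adjusted p = 0.00677 in edgeR) and with all 12 libraries in 1 edgeR fit (adjusted p = 0.0193). Adcy5 and Adcy6 were the 2 members of 7 without overlap, against 26.2% of all genes tested. A difference in response between Adcy5 and Adcy6 was not shown, since their ratio, taken without a GC correction, overlapped between these groups.

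None of the other members passed. Adcy9 had 15.5, 12 and 11.3 CPM in Zeb2 WT IR and 13.7, 10.6 and 14.6 CPM in libraries labelled Zeb2 cTg IR, a log2 fold change of 0.00 (SE 0.17). The value for Adcy9 turned to -0.35 with the GC correction (SE 0.11, adjusted p = 0.0909 in edgeR). Adcy7 had 13.6, 10.2 and 17.4 CPM against 12.5, 16.7 and 13.2 CPM, a log2 fold change of 0.04 (SE 0.20), and turned to -0.07 with that correction. Adcy4 (0.34), Adcy1 (0.40) and Adcy3 (-0.08) had adjusted p of 0.396 to 0.877 in edgeR, and the groups of these 5 genes overlapped.

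Base composition moved with this comparison. Genes of higher GC content in their longest transcript had higher log2 fold changes over 12892 genes (Spearman's rho 0.552), and lower ones over 13609 genes in WT IR against WT sham (rho -0.292). Genes are not independent replicates, so no p is given. The members have 50.8% (Adcy8) to 59.5% GC (Adcy5), with 55.4% for Adcy6. After a loess correction on GC content, Adcy6 had a log2 fold change of 0.59 (SE 0.10, adjusted p = 0.0141 in edgeR) against 0.87 without it. Adcy5 had 0.26 (SE 0.10, adjusted p = 0.165 in edgeR) against 0.71 without it, so both values were smaller and that of Adcy5 by more. With size factors from cardiomyocyte markers, where the median of all genes was -0.19, Adcy6 had 0.66 and did not pass (adjusted p = 0.0897), which is 0.85 relative to that median.

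Markers of other cell types were compared here too. Fibroblast markers summed to 874 to 1970 CPM in Zeb2 WT IR and 509 to 624 CPM in libraries labelled Zeb2 cTg IR, without overlap, with 3 of 8 called lower. Cardiomyocyte markers summed to 17617 to 20173 CPM against 18167 to 24334 CPM, with overlap, and 2 of 10 were called higher. Smooth muscle and pericyte markers summed to 690 to 828 CPM against 556 to 623 CPM, without overlap, with 1 called higher and 1 lower of 7 tested. Macrophage markers overlapped, with 135 to 197 CPM against 146 to 160 CPM. By edgeR 0 of 8 macrophage and 0 of 7 endothelial markers were called, with 4 and 3 at an unadjusted p under 0.05, and DESeq2 called 1 of each and limma-voom 0. Of 5 erythroid and 3 Schwann and neuronal markers, all 3 tools called 0, with 1 and 0 at an unadjusted p under 0.05 in edgeR. The part of cell composition in the Adcy6 and Adcy5 values was not tested.

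Adcy8 and Adcy2, cyclases best known from the nervous system, were near the limit of detection. Adcy8 had 7, 8 and 8 counts in Zeb2 WT IR and 1, 1 and 2 counts in libraries labelled Zeb2 cTg IR, without overlap, and did not pass the filter on low counts there. In the fits that kept it, without a filter and with all 12 libraries, edgeR called it lower (adjusted p = 0.0472 and 0.0234). Summed over the hearts of each group, 4 counts stood against 23, a depth-adjusted ratio of 0.166 with an exact 95% interval of 0.0418 to 0.487, which covers counting error only. In WT sham it had 16, 16 and 3 counts and in WT IR 12, 13 and 4, with overlap (log2 fold change -0.59, adjusted p = 0.379 in edgeR).

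Adcy2 had 3 to 8 counts per heart in WT sham and 9 to 19 in WT IR, or 14 against 41 in all, a depth-adjusted ratio of 2.31 with an exact 95% interval of 1.23 to 4.59 for counting error. Its CPM overlapped between these groups, and it did not pass the filter on low counts in either table. In the fits that kept it, without a filter and with all 12 libraries, its log2 fold change in WT IR was 1.23 and 1.24. Neither passed (adjusted p = 0.106 and 0.109 in edgeR), nor did it in the second comparison (adjusted p = 0.763 and 0.649). In Zeb2 WT IR it had 27 counts in all and in libraries labelled Zeb2 cTg IR 22, a ratio of 0.780 (0.423 to 1.42). Adcy10, the soluble cyclase that is activated by bicarbonate and is not a member of the membrane family, had 0 to 4 counts per heart in all 12 libraries and did not pass the filter on low counts.

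Around the cyclases, 49 further genes of the cyclic AMP pathway were followed, of which 45 were tested in each table. In WT IR 4 were called higher and 9 lower, which is 28.9% of those tested against 20.8% of all genes. Among libraries labelled Zeb2 cTg IR 2 were called higher and 1 lower, which is 6.67% against 3.64% of all genes. The median log2 fold change of the 45 genes was -0.02 in WT IR and -0.06 in libraries labelled Zeb2 cTg IR.

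Upstream of the cyclases, the beta-1 adrenergic receptor gene Adrb1, which encodes the main receptor for noradrenaline in cardiac muscle, fell to about 0.501 times in WT IR. It had 5.99 ± 0.110 CPM in WT sham and 2.99 ± 0.385 CPM in WT IR (SD, n = 3 each), a log2 fold change of -0.997 (SE 0.13, adjusted p = 0.00339 in edgeR). It passed with every single heart left out, with the GC correction and with size factors from cardiomyocyte markers (-0.63). Gnas, the stimulatory G protein alpha subunit, had 195 ± 3.63 CPM in WT sham and 192 ± 11 CPM in WT IR (SD, n = 3 each). Its log2 fold change of -0.03 (adjusted p = 0.852 in edgeR) turned to 0.36 with the size factors from cardiomyocyte markers. The median of all genes on that scale was 0.39. Gnai3, an inhibitory alpha subunit, rose by 0.54 (adjusted p = 0.0271 in edgeR) but did not pass with the GC correction (adjusted p = 0.0691).

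Among 15 phosphodiesterases tested, 2 were called higher and 3 lower in WT IR, or 33.3% of them against 20.8% of all genes. Pde1a and Pde1b, which are activated by calcium with calmodulin, rose by 1.26 and 0.89 on the log2 scale (adjusted p = 0.0107 and 0.0168 in edgeR). They had 4.27 and 1.28 CPM in WT sham. Pde1c, of the same kind, had 56.5 CPM in WT sham and 59.3 CPM in WT IR. Its log2 fold change of 0.07 did not pass (adjusted p = 0.619 in edgeR) and turned to -0.08 with the GC correction. It passed with size factors from cardiomyocyte markers (0.45, adjusted p = 0.0176 in edgeR). On that scale the median of all genes was 0.39, and 33.3% of all genes were called higher. Pde4a fell by 0.71, Pde4b by 0.43 and Pde7b by 0.51 (adjusted p from 0.00767 to 0.0126), all of them specific for cyclic AMP. Pde3a and Pde4d, prominent forms in heart muscle, had -0.16 and -0.07 and did not pass.

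Downstream, Prkaca, a catalytic subunit of PKA, fell by 0.36 (adjusted p = 0.0169) and Prkar1a, a regulatory subunit, rose by 0.41 (adjusted p = 0.0173 in edgeR), the latter without passing under the GC correction (adjusted p = 0.0728). The PKA inhibitor Pkig fell by 0.40, the Epac gene Rapgef3 by 0.43, the Popeye gene Bves by 0.39 and the mitochondrial PKA anchor Akap1 by 0.47 (adjusted p from 0.0129 to 0.0270). With size factors from cardiomyocyte markers none of these 4, nor Prkaca, Pde4b or Pde7b, passed. Prkaca turned to 0.02 there, where the median of all genes was 0.39. Of the 9 anchoring proteins tested, Akap1 was the only 1 called, or 11.1% against 20.8% of all genes. With each library left out in turn, Pde1a, Pde4a and Pde4b passed in 5 of 6 fits, Pde1b and Pde7b in 4, Prkaca, Prkar1a, Bves and Akap1 in 3, Gnai3 and Rapgef3 in 2, and Pkig in 1, the fit without WT IR replicate 1.

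Among libraries labelled Zeb2 cTg IR the called genes of the pathway were Pkig (log2 fold change 0.92, adjusted p = 0.0127), Popdc2, another Popeye gene (0.60, adjusted p = 0.0269), and Akap5, an anchor of PKA near the plasma membrane (-1.08, adjusted p = 0.0269 in edgeR). Adrb1 was at 3.36 ± 0.536 CPM in Zeb2 WT IR and 3.48 ± 0.376 CPM in these libraries (SD, n = 3 each), with a log2 fold change of 0.05 (adjusted p = 0.906) that turned to -0.40 with the GC correction. Gnas had 0.21 (adjusted p = 0.324) and turned to -0.18 with that correction. Of 15 phosphodiesterases edgeR called 0, with 4 at an unadjusted p under 0.05, while DESeq2 called 1 and limma-voom 0, and their median log2 fold change was -0.35. Prkaca had 0.36 (adjusted p = 0.135). On the scale of the cardiomyocyte markers Akap5 still passed (-1.29, adjusted p = 0.00551 in edgeR), and Pkig (0.71) and Popdc2 (0.39) did not. With 1 library left out, Akap5 and Popdc2 each passed in 1 of 6 fits, the one without replicate 2 of the libraries labelled Zeb2 cTg IR, with adjusted p up to 0.113 and 0.146 in edgeR, and Pkig passed in 4.

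**Figure D5:**
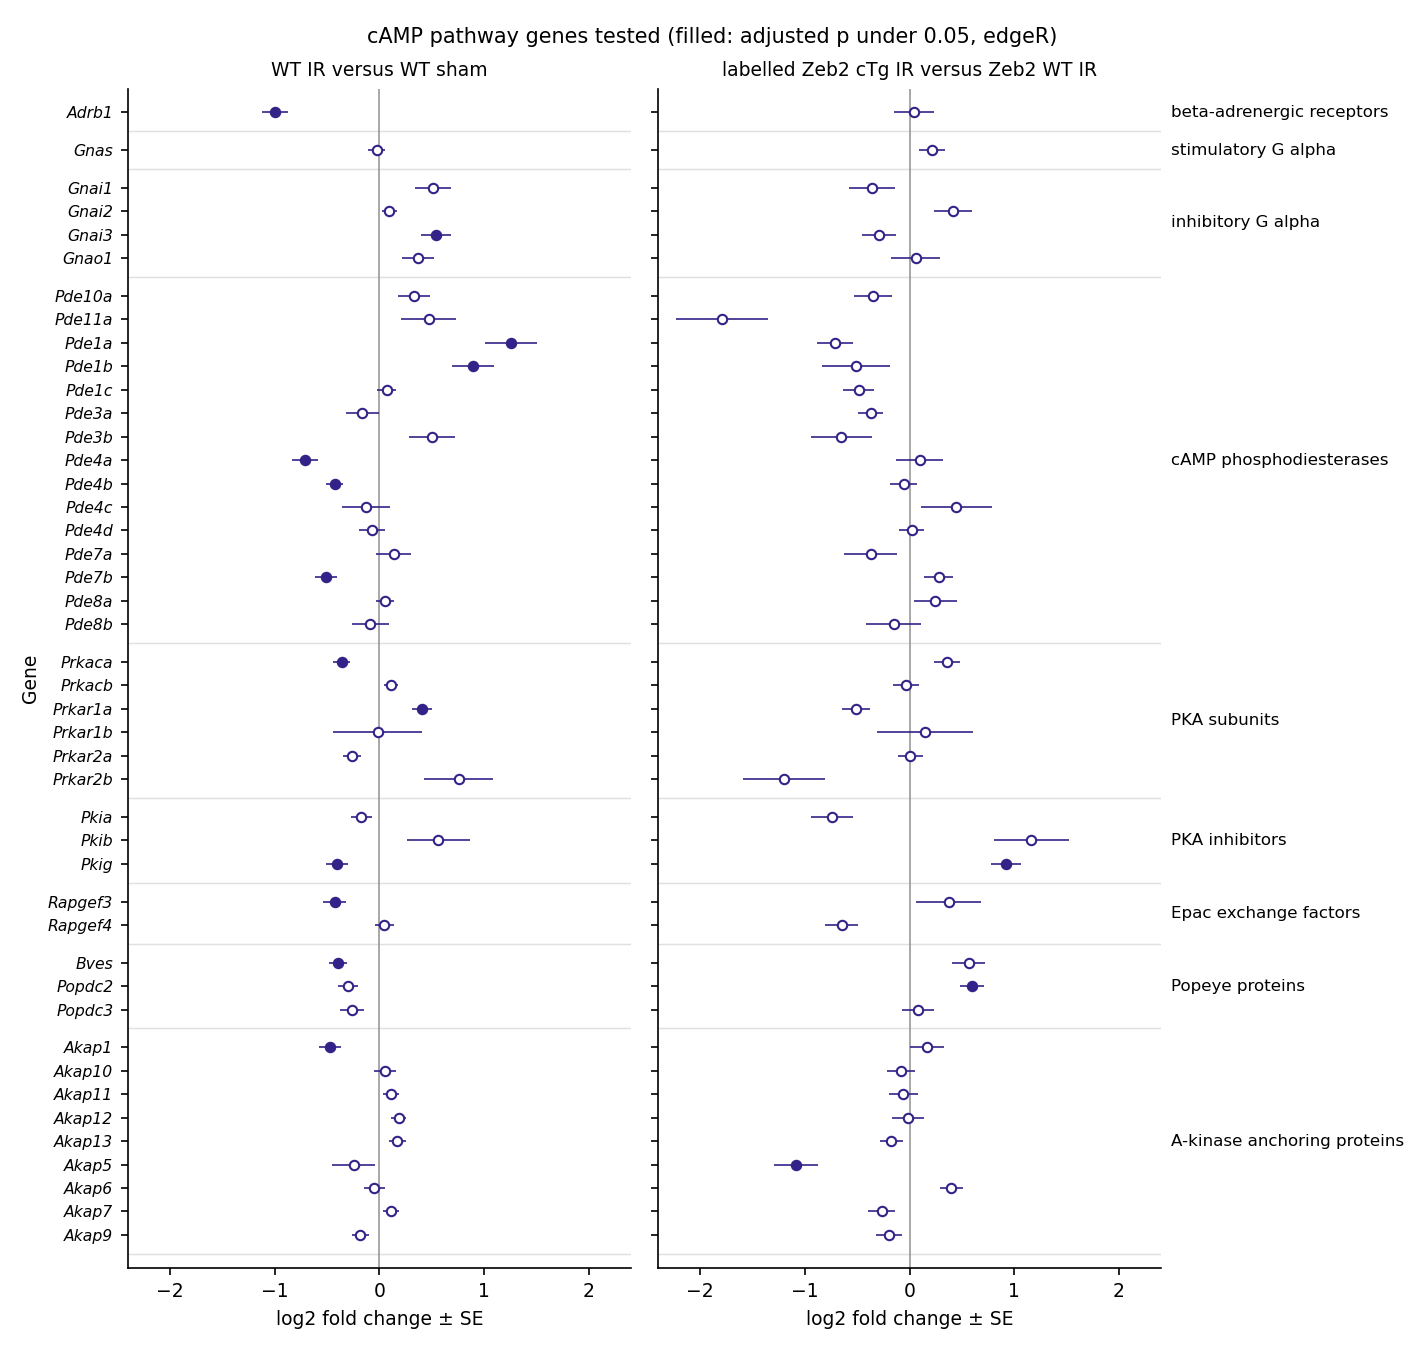
Log2 fold change (± SE, n = 3 per group) of tested genes of the cyclic AMP pathway around the adenylyl cyclases, grouped by role, in WT IR against WT sham (left) and in libraries labelled Zeb2 cTg IR against Zeb2 WT IR (right). Filled points passed at an adjusted p under 0.05, with 13 genes on the left and 3 on the right.

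To see which genes shared the pattern of the main cyclases across hearts, log2 CPM were centred within each table and correlated over the 12 libraries. The highest Pearson r with Adcy6, among 12002 genes, were those of Kcnj12 (0.985), Hspbp1 (0.978), Mfn2 (0.977), Nomo1 (0.975) and Kyat1 (0.975). Adcy5 came at rank 40 with r = 0.952. The highest with Adcy5 were Epn1 (0.995), Ube3b (0.991), Ppp1r37 (0.984) and Bag6 (0.983), with Adcy6 at rank 83. Adcy7 correlated negatively with both (r = -0.33 with Adcy6 and -0.41 with Adcy5). These values describe 12 libraries that share their groups, depth and base composition effects, and the named genes have 53.1% to 62.5% GC.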

How the data were processed

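RNA from 12 mouse hearts (4 groups, n = 3) had been sequenced as stranded single-end reads of 75 bases. The authors aligned reads with STAR 2.4.2a and counted them per gene with HTSeq 0.6.1, per the submitters' processing notes, and deposited whole-number counts, without normalization, in 2 tables of 38293 genes and 6 libraries. The methods name a total RNA kit and the labels an mRNA kit. Mitochondrial genes took 60.6% to 73.5% of the counts, and total counts were 20215781 to 36816818 per library. Libraries were grouped by their labels. The methods describe n as biological replicates, and the labels name no animals. No 2 libraries agreed within sampling noise (lowest chi-square per gene 6.90).

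Each table was fitted on its own in R 4.3.3 with edgeR 4.0.16: TMM, filterByExpr (minimum count 10, minimum total 15), the quasi-likelihood test with trended dispersion, and p-values adjusted by Benjamini-Hochberg across the tested genes (threshold 0.05). The fit was tested on simulated data. Shares and ratios used CPM per kb of merged exons (GENCODE M21, GRCm38, which gave symbols for 36345 identifiers) and exact permutation tests. Correlations used a prior count of 2. Coding sequences were aligned with MAFFT 7.526, and figures drawn with matplotlib 3.10.9. Intervals cover counting error only.

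The members, the lists of pathway genes and markers and the classes by regulation were chosen with earlier results of these data known. Text names all 9 members, Zeb2, pathway genes that passed in either comparison with Gnas, Adrb1, Prkaca and Adcy10, and the 5 genes most like Adcy6 and Adcy5, and other pathway genes were named after their values were seen. Of 50 pathway genes listed, 49 were matched, and Pde2a was not analysed here. Values of 1 pathway gene and of 1 gene among the 5 most like Adcy5 are not reported here, though counts over the lists include them. Alternatives were other size factors, filters, tools (DESeq2 1.42.0, limma-voom with limma 3.58.1) and lengths, a loess correction for GC content (span 0.5), the replicate block, all libraries in 1 fit and each library left out. Groups of 3 were not examined for single outlying libraries.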

Additional observations from a re-analysis of the deposited data

How the results depend on the processing

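Every value here rests on 3 libraries per group, and 1 CPM stood for 17.2 to 37.8 counts, so Adcy2 and Adcy8 were near the limit of what these libraries can show. In WT IR against WT sham, 3 members passed, and each of 13 alternatives gave 2 to 4, though not always the same members. Cardiomyocyte marker size factors gave Adcy3 and Adcy7, no filter added Adcy6, and all 12 libraries in 1 fit lost Adcy5 (adjusted p = 0.0656 in edgeR). For libraries labelled Zeb2 cTg IR against Zeb2 WT IR, 1 member passed (Adcy6), against 0 with cardiomyocyte marker size factors, 2 with DESeq2 or a threshold of 0.1, and 3 without a filter or with all 12 libraries in 1 fit. The member added was Adcy5 in each case, and the third was Adcy8, called lower. Pathway genes called in WT IR numbered 13, against 22 with cardiomyocyte marker size factors and 8 with all 12 libraries in 1 fit. In the second comparison they numbered 3, against 11 without a filter, 9 with the GC correction, 9 with DESeq2, and 12 with all 12 libraries in 1 fit or a threshold of 0.1. Over all genes, 2859 in WT IR became 4726 with cardiomyocyte marker size factors (4581 higher and 145 lower, against 1519 and 1340) and 1424 with all 12 libraries in 1 fit (950 higher and 474 lower), and the GC correction gave 1184 higher and 1588 lower. The 474 of the second comparison (278 higher and 196 lower) became 1553 without a filter, 836 with the GC correction, 1095 with DESeq2, 1932 with all 12 libraries in 1 fit, 1317 at a threshold of 0.1 and 393 with cardiomyocyte marker size factors (131 higher and 262 lower). The cause was not tested.

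Deviations of samples of the same replicate number had r = -0.034, 0.012 and -0.015 in the first table and 0.134, 0.260 and -0.042 in the second. Samples of unlike number in the second table had r from -0.33 to 0.33. With 3 libraries per group, these values cannot show whether the numbers pair the libraries. With the replicate block, 2 members (Adcy6, and Adcy5 with an adjusted p of 0.0138 in edgeR) and 15 pathway genes passed in the second comparison, and 1813 of all genes. With the block and the GC correction, 6 pathway genes did.

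Some log2 fold changes turned sign. With cardiomyocyte marker size factors WT IR gave 0.080 for Adcy1, 0.21 for Adcy4, 0.026 for Adcy6, 0.36 for Gnas and 0.016 for Prkaca, and the second comparison gave -0.14 for Adcy7, -0.20 for Adcy9 and -0.17 for Adrb1. The medians of all genes on that scale were 0.39 in WT IR and -0.19 in the second comparison. Relative to that median, Adcy1 had -0.31, Adcy4 -0.18 and Adcy6 -0.37 in WT IR. In the second comparison Adcy7 had 0.05 and Adcy9 -0.01 relative to it. With the GC correction Gnas had 0.087 in WT IR, and the second comparison gave -0.069 for Adcy7, -0.35 for Adcy9, 0.15 for Zeb2, -0.40 for Adrb1 and -0.18 for Gnas. With the block and the GC correction the values were 0.085 for Gnas in WT IR, and in the second comparison -0.074 for Adcy7, -0.35 for Adcy9, 0.15 for Zeb2, -0.39 for Adrb1 and -0.18 for Gnas. Adcy9 had -0.0067 with RLE size factors, -0.016 with upper quartile size factors and -0.0067 with DESeq2 there, all near 0.

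With 1 library left out, members called ranged from 0 to 6 in WT IR and from 0 to 2 in the second comparison, and pathway genes from 1 to 21 and from 0 to 12. The highest values came without WT IR replicate 1 and without replicate 2 of the libraries labelled Zeb2 cTg IR, and over all genes the calls ranged from 421 to 4980 and from 98 to 2419. Among the members, Zeb2, Adrb1, Gnas and Prkaca, the log2 fold changes that crossed 0 were those of Gnas in WT IR (-0.054 to 0.019) and, in the second comparison, of Adcy3 (-0.29 to 0.062), Adcy7 (-0.13 to 0.25), Adcy9 (-0.090 to 0.15), Zeb2 (-0.13 to 0.019) and Adrb1 (-0.082 to 0.14). In WT IR those of Pde1c (-0.0080 to 0.12), Pde3a (-0.33 to 0.0059) and Pde4d (-0.22 to 0.036) crossed 0 too. The difference in the Adcy6 share ranged from -5.95 to -0.853 percentage points in WT IR and from 7.95 to 11.0 in the second comparison, and that of the log2 ratio of Adcy6 to Adcy5 from 0.14 to 0.27 and from 0.10 to 0.23.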
